A study of Mus musculus with 12 samples.

Results

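The genes of the NF-κB transcription factors and of proteins that restrain or modulate them were followed across 4 drug treatments of mouse leukaemia cells. The set was chosen by name and holds 10 of the 24411 gene rows of the deposited table. These are the subunit genes Rel, Rela, Relb, Nfkb1 and Nfkb2, and Nfkbia, Nfkbie, Nfkbiz, Bcl3 and Tnfaip3, here grouped as inhibitors. In that group Nfkbiz and Bcl3 encode nuclear proteins, Nfkbiz a cofactor for target genes, and the product of Tnfaip3 acts further upstream. All 10 were among the 11484 genes with a mean of at least 10 normalised reads, the limit for testing. The cells of every group were BALB/c bone marrow cells carrying mutant CSF3R (the receptor for granulocyte colony-stimulating factor) and mutant CEBPA (a myeloid transcription factor) from retroviral vectors, kept in IMDM with fetal bovine serum. They received 50 nM ruxolitinib with 2 nM GSK-LSD1 (the combination), 2 nM GSK-LSD1 alone, 50 nM ruxolitinib alone, or DMSO, the solvent, for 24 h. Ruxolitinib inhibits the kinases JAK1 and JAK2, and GSK-LSD1 inhibits the histone demethylase LSD1, which Kdm1a encodes. Total RNA of 3 libraries per treatment was sequenced. The labels do not say whether these came from separate cultures, so the p-values measure the spread between these libraries, which may be technical.

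NF-κB factors are dimers of Rel-family proteins, held in the cytoplasm by inhibitors of the IκB family until a kinase complex, IKK, marks the inhibitor for degradation. The freed dimers bind κB sites and switch on genes of inflammation and survival, among them the genes of several of their own subunits and inhibitors, which closes a feedback loop. In myeloid cells the pathway carries signals from Toll-like receptors and from receptors of the tumour necrosis factor family. RNA levels do not show how much of the protein is in the nucleus.

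Deposited values of each library, in multiples of its own step of 0.986 to 1.03, summed to between 8260995 and 8528400. Gfi1b, which LSD1 complexes are known to repress in blood cells, was higher by 2.39 ± 0.08 (log2 fold change ± SE) after GSK-LSD1 than after DMSO, with limma adjusted p = 7.82e-15. Kdm1a itself differed by -0.05 (adjusted p = 0.524). A principal component analysis put 54.7% of the variance on its first axis, which separated libraries with GSK-LSD1 from those without it. On the second axis ruxolitinib library 2 at -19.7 and combination library 3 at -17.3 lay apart from their groups, so the member counts are also given without both. Immature myeloid markers were abundant in all 12 libraries: the 7 listed genes summed to between 20793 and 31427. Most of this came from Mpo, at 6385 to 12905.5, and Cebpa, at 8674 to 11458.5, while Elane had 72.8 to 303. Whether reads of the CEBPA vector are counted in Cebpa is not known. The 6 mast cell and basophil markers were abundant too, with sums between 15750 and 20082.

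Of the 10 NF-κB genes, 5 were higher after GSK-LSD1 than after DMSO, and none was lower. These were Rel, Relb, Nfkbie, Nfkbiz and Bcl3 (limma, adjusted p under 0.05). In that comparison 32.5% of all genes tested passed in either direction and 17% passed as higher. After the combination 5 genes were higher than after DMSO, namely Rel, Relb, Nfkb1, Nfkbie and Nfkbiz, where 42.3% of all genes passed and 20.5% were higher. Against ruxolitinib, the combination again showed 5 higher genes, the same 5 as against DMSO, with 31.6% of all genes past the test and 16% higher. GSK-LSD1 against ruxolitinib showed 4 higher genes, Rel, Relb, Nfkbie and Nfkbiz, with 25.4% of all genes past the test and 13.6% higher. These comparisons share their DMSO or drug libraries and are not independent of each other.

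With ruxolitinib alone none of the 10 genes passed against DMSO, and none had an unadjusted p under 0.05 (1.63% of all genes passed). In that comparison Rel was at -0.23 ± 0.13 (log2, SE) and Nfkbiz at -0.21 ± 0.12. Nfkbie was at -0.09 ± 0.10, Relb at -0.08 ± 0.15 and Tnfaip3 at -0.12 ± 0.20. The values of Nfkb1, Nfkb2, Rela, Nfkbia and Bcl3 were positive. For Rel, Relb, Nfkbie and Nfkbiz, differences against ruxolitinib are therefore larger than those against DMSO. Over 11053 genes, the log2 fold changes of ruxolitinib against DMSO rose with the GC content of the transcripts (Spearman rho 0.415). For the combination against GSK-LSD1 rho was 0.26. With a correction for GC content, Nfkb2 and Rela turned negative for ruxolitinib against DMSO. The part of this trend in the directions of the 10 genes was not tested. Adding ruxolitinib to GSK-LSD1 also gave no call (1.4% of all genes passed), and only Rel had an unadjusted p under 0.05. The interaction, which asks whether the effect of the combination differed from the effects of the single drugs added together (log2), gave 0 calls at either level (0.00871% of all genes passed, which is 1 gene). An F-test for any difference among the 4 treatments called 5 of the 10 genes (42.8% of all genes), from Rel with adjusted p = 7.67e-05 through Nfkbiz (0.000409), Nfkbie (0.00248) and Relb (0.00357) to Nfkb1 (0.0157). Without ruxolitinib library 2 and combination library 3 the counts were 6 for GSK-LSD1 against DMSO, 5 for the combination against DMSO, 5 for the combination against ruxolitinib, 5 for GSK-LSD1 against ruxolitinib and 0 for the other pairs. In that fit 42.5%, 45.7%, 32.4% and 27% of all genes passed in the first 4 comparisons, in the same order. With single libraries left out, the count for GSK-LSD1 against DMSO fell to 2 without GSK-LSD1 library 2 or 3, to 3 without DMSO library 1 or 2, and to 1 without DMSO library 3. The share of all genes fell as well, to 23.8%, 24.2%, 24.9%, 25.7% and 24.4% in these fits, in the same order. The count for the combination against DMSO fell to 3 without combination library 2 (38.2% of all genes) and to 2 without DMSO library 3 (35% of all genes).

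The median log2 fold change of the 10 genes was 0.20 after GSK-LSD1 and 0.23 after the combination, each against DMSO. Over all genes tested those medians were -0.00 and -0.01. For Rel, Relb, Nfkbie and Nfkbiz, all 6 libraries with GSK-LSD1 lay above all 6 without it. Such a split, in the higher direction, was seen for 11.3% of all genes tested. Between single pairs of groups, 6 of the 10 genes were higher without overlap after GSK-LSD1 than after DMSO (24.4% of all genes) and 6 after the combination than after DMSO (24.9%). Against ruxolitinib this held for 4 genes after the combination (19.3% of all genes) and 4 after GSK-LSD1 (19.8%). None of the 10 genes split by ruxolitinib over all 12 libraries, against 1.03% of all genes in either direction. In RNA from a bulk culture, fewer cells of a type and less RNA per cell cannot be told apart.

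**Figure D1:**
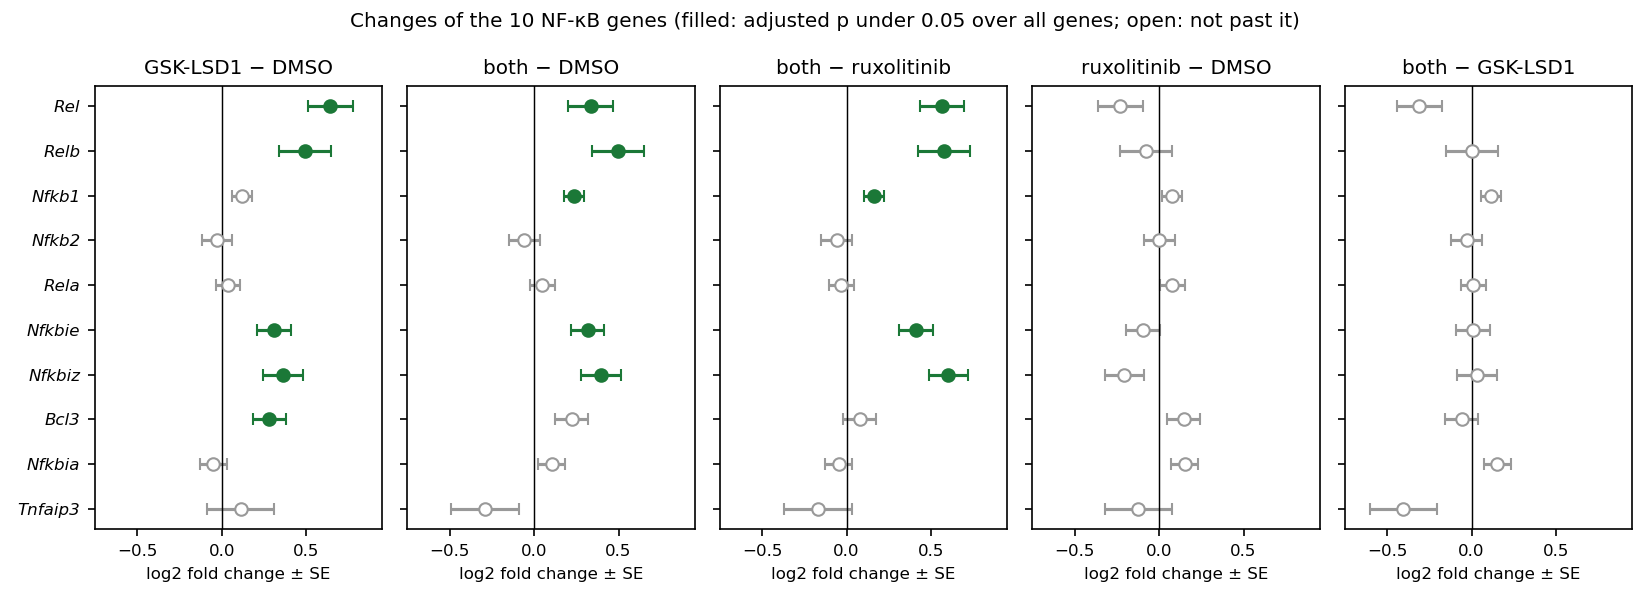
Log2 fold change ± SE of each of the 10 genes in 5 comparisons, from 1 limma fit over 12 libraries; filled points had an adjusted p under 0.05 over all genes tested. Rel, Relb, Nfkbie and Nfkbiz are filled in the 3 panels where GSK-LSD1 was added, and no gene is filled in the panels for ruxolitinib against DMSO or for the combination against GSK-LSD1.

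Promoter sequences are shown because several of these genes moved together and because genes of this pathway are known to carry κB sites. RefSeq gave windows of 300 bases, 250 before and 50 after a transcript start (GRCm38.p6), for 7 of the 10 genes: Rel, Rela, Nfkb2, Nfkbia, Nfkbie, Tnfaip3 and Bcl3. The κB consensus motif of 10 bases, searched on both strands, was found in 8 of the 10 windows of these genes. The Nfkb2 windows that begin at 46305445 and 46305680 overlap. A single match lies in both, at positions 11 to 20 of the former and -225 to -216 of the latter. These windows are thus not separate. Of all 32851 windows in the table, 2779 held it, which is 8.46%. Counted by gene, 6 of the 7 had a match in at least 1 window and Rela had none, beside 9.55% of all 27025 genes in the table. A match describes letters in a window and was not tested as a binding site. The 250 bases before the start are given for Rel, the gene with the smallest F-test p, for Nfkbie, an inhibitor gene that was higher with GSK-LSD1, and for Nfkbia, the best known NF-κB target among the inhibitors, which was not. Capitals mark the κB matches, and in Rel overlapping matches on the 2 strands cover 11 bases.
Rel, chr11:23770970-23771219, minus strand: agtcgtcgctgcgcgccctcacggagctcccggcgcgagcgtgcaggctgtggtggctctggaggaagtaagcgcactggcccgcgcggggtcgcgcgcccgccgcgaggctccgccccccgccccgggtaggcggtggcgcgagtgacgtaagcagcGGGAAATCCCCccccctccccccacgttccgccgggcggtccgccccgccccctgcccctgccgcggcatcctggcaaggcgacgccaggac
Nfkbie, chr17:45555450-45555699, plus strand: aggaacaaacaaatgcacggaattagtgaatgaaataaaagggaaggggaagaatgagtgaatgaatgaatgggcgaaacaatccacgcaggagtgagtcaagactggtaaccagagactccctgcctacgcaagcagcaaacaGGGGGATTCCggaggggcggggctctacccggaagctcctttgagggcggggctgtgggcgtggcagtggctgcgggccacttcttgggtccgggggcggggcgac
Nfkbia, chr12:55492648-55492897, minus strand: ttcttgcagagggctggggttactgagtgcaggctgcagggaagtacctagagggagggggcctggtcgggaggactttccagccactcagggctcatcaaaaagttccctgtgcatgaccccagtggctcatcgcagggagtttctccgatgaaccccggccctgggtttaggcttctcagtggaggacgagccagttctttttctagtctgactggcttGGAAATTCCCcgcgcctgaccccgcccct

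The match lay at positions -92 to -82 from the start in Rel, at -106 to -97 in Nfkbie and at -29 to -20 in Nfkbia. Shorter stretches of 30 bases show the matches near the starts of Bcl3, Tnfaip3 and Nfkb2. The Bcl3 match lay at positions 3 to 12, just inside the transcript. The Tnfaip3 matches lay at -125 to -116 and at -12 to -3, and those of the first Nfkb2 window at -39 to -29 and -11 to -2. These positions, and the word upstream below, refer to the RefSeq starts. In GENCODE vM21 both genes begin further upstream, Tnfaip3 at 19015657 (minus strand) and Nfkb2 at 46304320 (plus strand). These matches therefore lie inside the genes as annotated there. Matches were thus found both in genes called after GSK-LSD1 (Rel, Nfkbie and Bcl3) and in genes that were not (Nfkbia, Tnfaip3 and Nfkb2).
Bcl3, chr7:19822734-19822763, minus strand: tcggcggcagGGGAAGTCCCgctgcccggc
Tnfaip3 upstream, chr10:19015516-19015545, minus strand: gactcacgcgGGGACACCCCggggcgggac
Tnfaip3 at the start, chr10:19015403-19015432, minus strand: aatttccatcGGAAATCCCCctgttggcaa
Nfkb2 upstream, chr19:46304689-46304718, plus strand: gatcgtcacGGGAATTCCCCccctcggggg
Nfkb2 at the start, chr19:46304716-46304745, plus strand: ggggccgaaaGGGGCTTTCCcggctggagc

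Rel encodes c-Rel, a subunit with a transactivation domain that is best known from lymphoid and myeloid cells. The gene lies on chromosome 11 from 23736847 to 23770970 on the minus strand (GENCODE vM21, GRCm38). Its normalised read counts were 133, 122 and 103 in combination libraries, 133, 153 and 158 in GSK-LSD1 libraries, 93.5, 76.0 and 72.1 in ruxolitinib libraries, and 93.3, 100.02 and 89.1 in DMSO libraries. Every library with GSK-LSD1 was above every library without it, and combination library 3 lay nearest to the others. Means were 120 ± 14.9 after the combination, 148 ± 13.2 after GSK-LSD1, 80.6 ± 11.4 after ruxolitinib and 94.2 ± 5.50 after DMSO (SD, n = 3 each).

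Against DMSO, Rel was higher by 0.64 ± 0.13 after GSK-LSD1 (log2, SE; limma adjusted p = 0.000814), a call that held under all 24 alternative settings. After the combination it was higher by 0.34 ± 0.13 (adjusted p = 0.0461). That call was lost without combination library 1 (adjusted p = 0.181) or 2 (0.109), without GSK-LSD1 library 2 (0.0573) or 3 (0.0552), and without DMSO library 1 (0.0985), 2 (0.0552) or 3 (0.134). It was also lost with no filter on low values (0.0759), with quantile normalisation (0.287) and in a fit of the 2 groups alone (0.052). Relative to ruxolitinib, Rel was higher by 0.57 ± 0.13 after the combination (adjusted p = 0.00241) and by 0.87 ± 0.13 after GSK-LSD1 (adjusted p = 4.36e-05). The combination differed from GSK-LSD1 by -0.31 ± 0.13, with an unadjusted p of 0.0296 and an adjusted p of 0.335. Its interval of 95% ran from -0.58 to -0.03.

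Relb encodes RelB, the partner of processed Nfkb2 in the non-canonical pathway. It lies on chromosome 7 from 19606217 to 19629438 on the minus strand. Normalised read counts were 86.3, 69.1 and 101 in combination libraries, 84.9, 77.6 and 90.7 in GSK-LSD1 libraries, 49.7, 60.6 and 59.3 in ruxolitinib libraries, and 61.6, 62.0 and 55.5 in DMSO libraries. The groups with and without GSK-LSD1 did not overlap, though combination library 2 came within 10 reads of the highest DMSO library.

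Relb was higher by 0.50 ± 0.15 after the combination (limma adjusted p = 0.0128) and by 0.49 ± 0.15 after GSK-LSD1 (adjusted p = 0.018), each against DMSO. The first of these calls was lost without combination library 3 (0.0807) or DMSO library 3 (0.0527), without both libraries that stood apart (0.0724) and with quantile normalisation (0.163). The second was lost without GSK-LSD1 library 3 (0.0758) or DMSO library 3 (0.0715) and with quantile normalisation (0.166). Against ruxolitinib the differences were 0.58 ± 0.15 for the combination (adjusted p = 0.00671) and 0.57 ± 0.15 for GSK-LSD1 (adjusted p = 0.00881), and both held under all 24 alternatives. Between the combination and GSK-LSD1 the difference was 0.01 (95% interval -0.32 to 0.33).

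Nfkb1 encodes p105, which is processed to the p50 subunit and in its full length acts as an inhibitor. It lies on chromosome 3 from 135584655 to 135691547 on the minus strand. Its normalised read counts were 2214, 2404 and 2437 in combination libraries, 2116, 2245 and 2137 in GSK-LSD1 libraries, 1979, 2108 and 2231 in ruxolitinib libraries, and 1947, 2007 and 2023 in DMSO libraries. Combination and GSK-LSD1 libraries all exceeded the DMSO libraries, while the combination and ruxolitinib overlapped at 2214 and 2231. The combination differed from DMSO by 0.24 ± 0.06 (limma adjusted p = 0.00261), and this held under all 24 alternatives.

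Against ruxolitinib, Nfkb1 was higher by 0.16 ± 0.06 after the combination (limma adjusted p = 0.0433). Leaving out any library except combination library 1 or ruxolitinib library 3 ended that call, with adjusted p between 0.0517 and 0.181. It was also lost with no filter (0.0623), in a fit of the 2 groups alone (0.146) and without both libraries that stood apart (0.0781). After GSK-LSD1 alone Nfkb1 was at 0.12 ± 0.06 against DMSO (adjusted p = 0.126). That value passed in a fit of the 2 groups alone (0.022), with library weights (0.0337) and without both libraries that stood apart (0.0424).

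Nfkb2 and Rela, which lie on chromosome 19, did not pass in any comparison. Nfkb2 encodes p100, the precursor of p52. It had 419.5, 462 and 557 normalised reads in combination libraries, 493, 481 and 485 in GSK-LSD1 libraries, 461, 549 and 483 in ruxolitinib libraries, and 468, 501 and 519 in DMSO libraries. Its exons overlap those of Psd by 299 bases and those of AC114539.1 by 531 bases on the other strand. The strandedness of the libraries is not stated, so reads from these genes cannot be told apart. All 4 groups of Nfkb2 overlapped, with log2 differences from DMSO of -0.06 after the combination (95% interval -0.25 to 0.13) and -0.03 after GSK-LSD1 (-0.22 to 0.16).

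Rela encodes p65, the main transactivating subunit of the canonical pathway. It had 1128, 1204 and 1358 normalised reads in combination libraries, 1279, 1239 and 1138 in GSK-LSD1 libraries, 1189, 1373 and 1207 in ruxolitinib libraries, and 1216, 1173 and 1171 in DMSO libraries. The groups overlapped throughout. Relative to DMSO, Rela was at 0.05 after the combination (95% interval -0.10 to 0.20), 0.04 after GSK-LSD1 (-0.11 to 0.19) and 0.08 after ruxolitinib (-0.07 to 0.23). These intervals leave room for changes of up to 0.23 on the log2 scale.

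**Figure D2:**
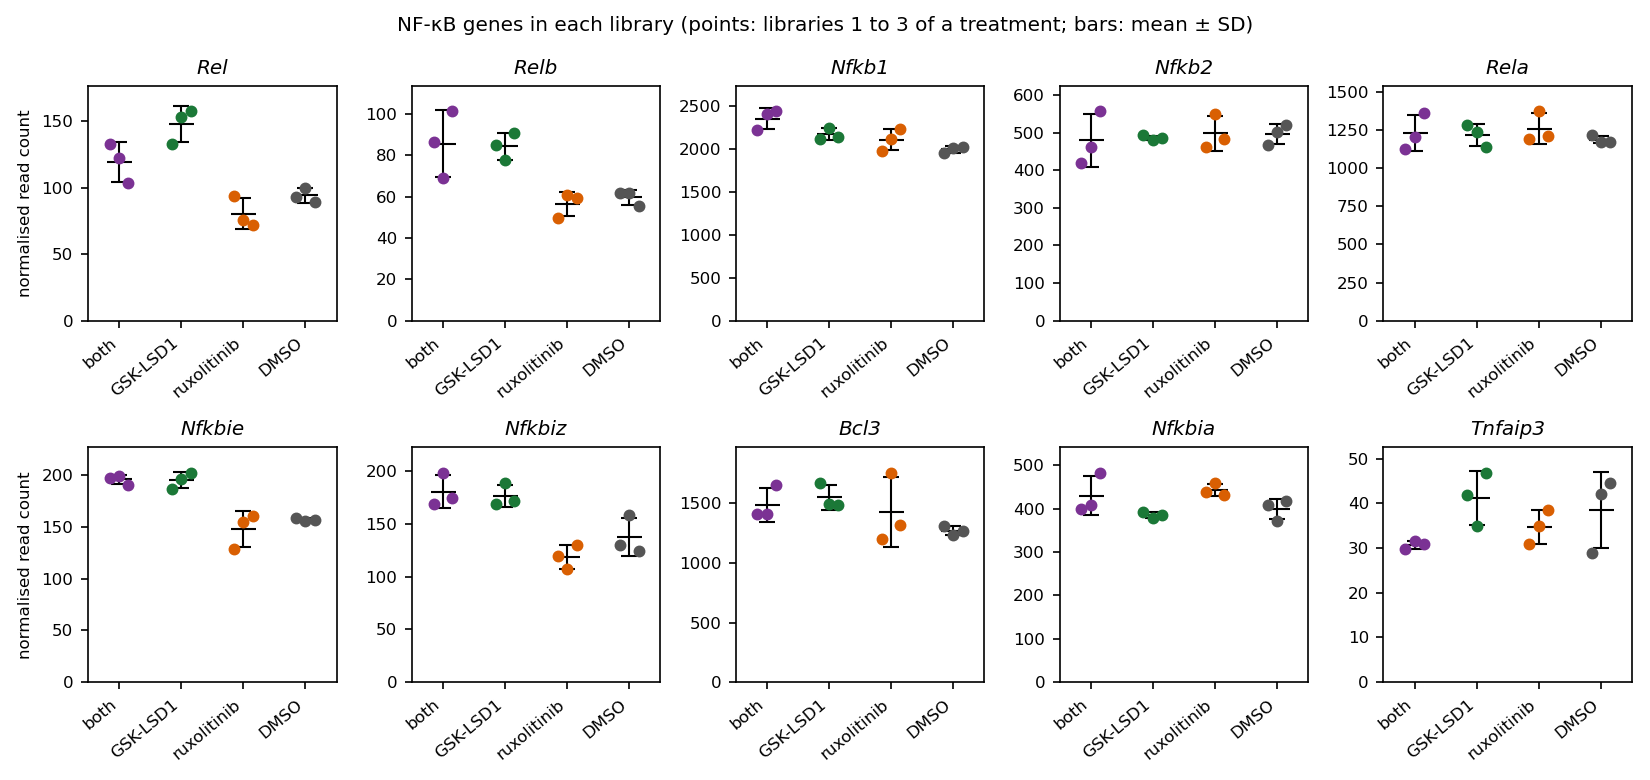
Normalised read count of each gene in the 12 libraries, with a panel per gene and axes that start at 0; points are libraries, bars the mean ± SD of 3 libraries per treatment ("both" is the combination). In the panels of Rel, Relb, Nfkbie and Nfkbiz the points of both groups with GSK-LSD1 all lie above those of ruxolitinib and DMSO.

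Among the inhibitors, Nfkbie encodes IκBε, a cytoplasmic inhibitor that NF-κB is known to induce, and lies on chromosome 17 from 45555703 to 45563169 on the plus strand. Normalised read counts were 197, 199 and 191 in combination libraries, 187, 196 and 202 in GSK-LSD1 libraries, 128, 155 and 160.1 in ruxolitinib libraries, and 159, 156 and 156 in DMSO libraries. The lowest library with GSK-LSD1 exceeded the highest one without it by more than 20 reads. Nfkbie was higher by 0.32 ± 0.10 after the combination (limma adjusted p = 0.0151) and by 0.31 ± 0.10 after GSK-LSD1 (adjusted p = 0.0223), each against DMSO.

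The Nfkbie call for the combination was lost with a correction for transcript GC content (adjusted p = 0.0505). The call for GSK-LSD1 was lost without GSK-LSD1 library 2 (0.0625) or 3 (0.0814) or DMSO library 2 (0.0588) or 3 (0.0594). Against ruxolitinib, Nfkbie was higher by 0.41 ± 0.10 after the combination (adjusted p = 0.00356) and by 0.40 ± 0.10 after GSK-LSD1 (adjusted p = 0.00509). Those calls held under all 24 alternatives.

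Nfkbiz encodes IκBζ, a nuclear member of the IκB family that works as a cofactor for a part of the NF-κB target genes, Il6 and Lcn2 among them. It lies on chromosome 16 from 55811375 to 55838899 on the minus strand. Normalised read counts were 169, 198 and 174 in combination libraries, 169, 188 and 172 in GSK-LSD1 libraries, 119, 107 and 129 in ruxolitinib libraries, and 130.1, 158 and 124 in DMSO libraries. All libraries with GSK-LSD1 were above the rest, of which DMSO library 2 was the highest.

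Nfkbiz was higher by 0.40 ± 0.12 after the combination (limma adjusted p = 0.00933) and by 0.36 ± 0.12 after GSK-LSD1 (adjusted p = 0.0207), each against DMSO. The call for the combination was lost without combination library 2 (0.054) or DMSO library 3 (0.0567). The call for GSK-LSD1 was lost without GSK-LSD1 library 2 (0.0918) or DMSO library 1 (0.0758) or 3 (0.106), and with quantile normalisation (0.0546). Against ruxolitinib the differences were 0.60 ± 0.12 for the combination (adjusted p = 0.000447) and 0.57 ± 0.12 for GSK-LSD1 (adjusted p = 0.00101), and both held under all 24 alternatives.

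Bcl3 encodes another nuclear IκB protein, which binds dimers of p50 or p52 on DNA. It lies on chromosome 7 from 19808462 to 19822770, 179024 bases from Relb, and its exons overlap the antisense gene Gm16175 by 161 bases, so that reads of both cannot be told apart. Normalised read counts were 1405, 1406 and 1653 in combination libraries, 1669, 1490 and 1484 in GSK-LSD1 libraries, 1201, 1756 and 1315 in ruxolitinib libraries, and 1312, 1236 and 1265 in DMSO libraries. The combination and GSK-LSD1 groups lay above the DMSO group, whereas ruxolitinib library 2 was the highest of all 12.

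Bcl3 was higher after GSK-LSD1 than after DMSO by 0.28 ± 0.10 (limma adjusted p = 0.0318). This call was lost without any 1 of the GSK-LSD1 libraries (0.135, 0.0543 and 0.0518 without library 1, 2 and 3) or of the DMSO libraries (0.0564, 0.0953 and 0.082), and with no filter (0.0681). After the combination Bcl3 was at 0.22 ± 0.10 against DMSO (adjusted p = 0.0724). It passed without ruxolitinib library 1 (0.0458) or 2 (0.00926), with upper quartile scaling (0.0336), quantile normalisation (0.0152) or library weights (0.0349), in a fit of the 2 groups alone (0.0161) and without both libraries that stood apart (0.0375). Against ruxolitinib it was at 0.08 ± 0.10 after the combination (adjusted p = 0.584) and 0.14 ± 0.10 after GSK-LSD1 (adjusted p = 0.323). Without ruxolitinib library 2 these became 0.24 (adjusted p = 0.0194) and 0.30 (adjusted p = 0.00622), and with the GC correction GSK-LSD1 against ruxolitinib was at 0.23 (adjusted p = 0.00684).

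Nfkbia and Tnfaip3, the most widely used markers of NF-κB feedback, did not pass in any comparison. Nfkbia encodes IκBα, the main cytoplasmic inhibitor. Its normalised read counts were 399.7, 408 and 483 in combination libraries, 393, 378 and 386 in GSK-LSD1 libraries, 438, 459 and 433 in ruxolitinib libraries, and 409, 372 and 417 in DMSO libraries. Ruxolitinib libraries lay above both GSK-LSD1 and DMSO libraries without overlap, and combination libraries lay above GSK-LSD1 libraries. Without overlap, 10.9% of all genes were higher after ruxolitinib than after DMSO, 8.81% were higher after the combination than after GSK-LSD1, and 19.8% were lower after GSK-LSD1 than after ruxolitinib. For Nfkbia the differences were 0.15 ± 0.08 for ruxolitinib against DMSO (limma adjusted p = 0.339), 0.15 ± 0.08 for the combination against GSK-LSD1 (0.455) and -0.20 ± 0.08 for GSK-LSD1 against ruxolitinib (0.0718). The last of these passed without combination library 3 (adjusted p = 0.0337).

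Tnfaip3 encodes A20, a ubiquitin-editing enzyme that ends signalling upstream of IKK. It was the least abundant of the 10 genes, with 29.8, 31.6 and 30.8 normalised reads in combination libraries, 42.0, 34.8 and 46.9 in GSK-LSD1 libraries, 30.8, 34.9 and 38.5 in ruxolitinib libraries, and 28.8, 42.0 and 44.6 in DMSO libraries. All combination libraries were below all GSK-LSD1 libraries, and the other groups overlapped. Of all genes, 9.33% were lower in this way. The combination differed from GSK-LSD1 by -0.40 ± 0.20 (limma adjusted p = 0.428) and from DMSO by -0.29 ± 0.20 (adjusted p = 0.252; 0.0188 with quantile normalisation). At this depth the 95% interval of GSK-LSD1 against DMSO ran from -0.30 to 0.53, which takes in the differences of Relb and Nfkbiz but not that of Rel.

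Per length, the 10 genes spanned a wide range of levels. Per kb of annotated exon, the mean over 12 libraries was 579 normalised reads for Bcl3, 398 for Rela, 258 for Nfkbia, 179 for Nfkb1, 107 for Nfkb2, 57.1 for Nfkbie, 30.5 for Nfkbiz, 18.4 for Relb, 14.8 for Rel and 5.02 for Tnfaip3. Only neighbouring genes from Nfkbiz to Rel overlapped in their ranges: Nfkbiz ran from 21.3 to 39.5, Relb from 12.8 to 26.1 and Rel from 9.66 to 21.1 reads per kb. The 4 genes that were higher in every library with GSK-LSD1 thus stood at places 6 to 9 of 10 in level.

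The level of Rel relative to Rela, the other canonical transactivating subunit, was low in all groups. Per kb, Rel reached 4.85%, 4.18% and 3.13% of Rela in combination libraries and 4.28%, 5.09% and 5.70% in GSK-LSD1 libraries. It reached 3.24%, 2.28% and 2.46% in ruxolitinib libraries, and 3.16%, 3.51% and 3.13% in DMSO libraries. The GSK-LSD1 libraries were above all ruxolitinib and DMSO libraries, and combination library 3 lay within the range of the DMSO libraries.

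**Figure D3:**
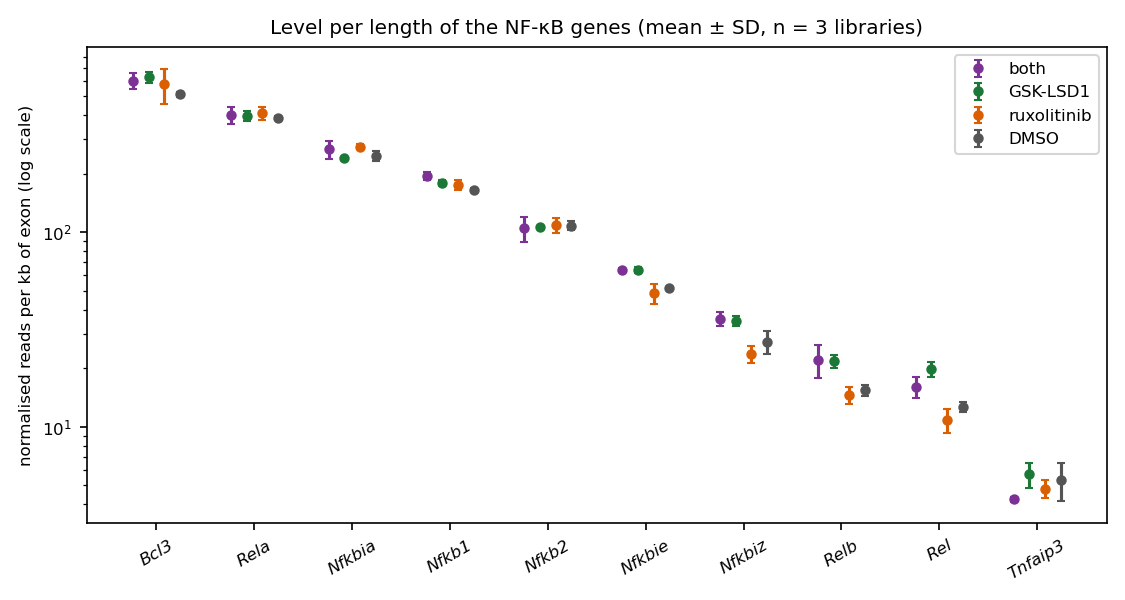
Mean ± SD (n = 3 libraries) of normalised reads per kb of exon on a log axis for each gene and treatment ("both" is the combination), ordered by the mean over all libraries. The genes run from Bcl3 at a mean of 579 to Tnfaip3 at 5.02, and the gap between groups is visible for Nfkbie, Nfkbiz, Relb and Rel.

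Among all other tested genes, the patterns most like that of Rel, by Pearson correlation of log2 values over the 12 libraries, were those of Lpp (r = 0.98), 1110059E24Rik (0.97), Cd2ap (0.97), Gpr171 (0.96) and Picalm (0.96). The libraries share their treatments, so the correlations describe a common order of libraries. Of the other members, Nfkbiz had r = 0.82 with Rel, Nfkbie 0.76 and Relb 0.69. Nfkb1 was at 0.29, Bcl3 at 0.23, Tnfaip3 at 0.11, Rela at -0.31, Nfkb2 at -0.39 and Nfkbia at -0.62.

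Other genes of the pathway were taken from lists drawn up with earlier results of these data known. Of 39 tested genes for receptors and adaptors, 17 were higher and 3 lower after the combination, and 11 were higher and 3 lower after GSK-LSD1, each against DMSO. That is 51.3% of the list after the combination and 35.9% after GSK-LSD1, beside 42.3% and 32.5% of all genes tested. In a fit of the GSK-LSD1 and DMSO groups alone, 22 passed. The share of all genes in that fit is not given here, so 22 cannot be set beside 32.5%. The list medians were 0.18 after the combination and 0.16 after GSK-LSD1, beside all-gene medians of -0.01 and -0.00. None of the 39 passed after ruxolitinib. Cd14, the co-receptor for lipopolysaccharide, had 238, 267 and 263 normalised reads in combination libraries, 289, 249 and 252 in GSK-LSD1 libraries, 156, 152 and 148 in ruxolitinib libraries, and 156, 150.04 and 171 in DMSO libraries. Its groups with GSK-LSD1 were clear of the others, with a log2 difference from DMSO of 0.68 ± 0.10 after the combination (limma adjusted p = 7.78e-06) and 0.72 ± 0.10 after GSK-LSD1 (7.27e-06).

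Map3k14 encodes NIK, the kinase that starts the non-canonical pathway in which RelB acts. It had 123, 119 and 120.3 normalised reads in combination libraries, 109.9, 112 and 111 in GSK-LSD1 libraries, 65.7, 108 and 68.2 in ruxolitinib libraries, and 66.5, 79.0 and 67.3 in DMSO libraries. All libraries with GSK-LSD1 were highest, and ruxolitinib library 2 came close to them. The log2 difference from DMSO was 0.76 ± 0.15 after the combination (limma adjusted p = 0.000432) and 0.64 ± 0.15 after GSK-LSD1 (0.00298). Prkcb, which encodes a protein kinase C, differed from DMSO by 1.02 ± 0.10 after the combination and 0.97 ± 0.10 after GSK-LSD1, and Malt1, which encodes a protease of NF-κB signalling, by 0.35 ± 0.09 and 0.39 ± 0.09 in the same order. These calls of Cd14, Map3k14, Prkcb and Malt1 against DMSO held under all 24 alternatives.

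Within the list of IKK and linear ubiquitin genes, all 9 were tested. After the combination 1 was higher and 1 lower than after DMSO, and after GSK-LSD1 only 1 was higher, which is 22.2% and 11.1% of the list. The higher gene was Ikbke, an IKK-related kinase, at 0.60 ± 0.10 after the combination (limma adjusted p = 4.69e-05) and 0.40 ± 0.10 after GSK-LSD1 (0.00341). The lower gene was Chuk, which encodes the kinase IKKα, at -0.25 ± 0.09 after the combination (adjusted p = 0.0245). That call was lost without combination library 3 (0.101) or DMSO library 1 (0.0666) or 2 (0.0915), with upper quartile scaling (0.0596) and with the GC correction (0.0547). After GSK-LSD1, Chuk was at -0.10 ± 0.09, Ikbkb, for the kinase IKKβ, at -0.07 ± 0.07 and Ikbkg, for the scaffold NEMO, at 0.17 ± 0.07 against DMSO, none past the test. Against ruxolitinib, Ikbkg was higher by 0.21 ± 0.07 after GSK-LSD1 (adjusted p = 0.0417). Without 1 of 7 libraries that call was lost, namely combination library 2 (0.0502), GSK-LSD1 library 2 (0.162) or 3 (0.123), ruxolitinib library 2 (0.219) or DMSO library 1 (0.0545), 2 (0.0544) or 3 (0.0545). Of 17 other inhibitors, 3 were higher and 3 lower after the combination, and 1 was higher and 2 lower after GSK-LSD1, which is 35.3% and 17.6% of that list. In both lists the shares were below those of all genes tested (42.3% after the combination and 32.5% after GSK-LSD1). Leaving out single libraries moved these small counts. For GSK-LSD1 against DMSO, 2 IKK genes passed without combination library 3, GSK-LSD1 library 1 or ruxolitinib library 1 or 3, and 3 without ruxolitinib library 2. Of all genes, 36.6%, 27.5%, 32.6%, 32.7% and 35.6% passed in these fits, in the same order. Of the inhibitors, 0 passed without GSK-LSD1 library 3 (24.2% of all genes) and 1 without DMSO library 2 (25.7%) or 3 (24.4%). For the combination against DMSO, 1 IKK gene passed without combination library 3 (40.3% of all genes) or DMSO library 1 (35.1%) or 2 (35.8%).

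Nfkbib, which encodes IκBβ, had 404, 424 and 472 normalised reads in combination libraries, 523, 427 and 429.8 in GSK-LSD1 libraries, 558, 666 and 512 in ruxolitinib libraries, and 538, 506 and 566 in DMSO libraries. It was lower after the combination than after DMSO by -0.31 ± 0.10 (adjusted p = 0.0131), opposite in direction to Nfkbie, and the call was lost without combination library 1 (0.0599) or DMSO library 3 (0.0631).

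Of 50 listed NF-κB target genes 30 were abundant enough to test. After the combination 15 were higher and 3 lower than after DMSO (median 0.28), and after GSK-LSD1 14 were higher and 3 lower (median 0.31). That is 60% of the list after the combination, where 42.3% of all genes passed, and 56.7% after GSK-LSD1, where 32.5% did. The all-gene medians were -0.01 and -0.00. Csf1, the macrophage colony-stimulating factor, had 534, 631 and 490.3 normalised reads in combination libraries, 419.6, 479 and 461 in GSK-LSD1 libraries, 207, 254 and 205 in ruxolitinib libraries, and 198, 190.05 and 155 in DMSO libraries. Its log2 difference from DMSO was 1.60 ± 0.11 after the combination and 1.32 ± 0.11 after GSK-LSD1. Nlrp3, the inflammasome sensor, was higher by 2.24 ± 0.21 and 1.58 ± 0.21 in the same order, and Irf8, a monocyte and dendritic cell transcription factor, by 1.47 ± 0.21 and 1.05 ± 0.21. Birc3, which encodes the ubiquitin ligase cIAP2, was higher by 0.27 ± 0.09 (limma adjusted p = 0.0161) and 0.33 ± 0.09 (0.00665). Both calls of Birc3 were lost without DMSO library 1 (0.106 for the combination and 0.0536 for GSK-LSD1).

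Not all targets followed that direction. Il10, an anti-inflammatory cytokine, was lower than in DMSO libraries by -1.39 ± 0.21 after the combination (limma adjusted p = 1.87e-05) and by -1.25 ± 0.21 after GSK-LSD1 (0.000105). Icam1, an adhesion molecule and a classical NF-κB target, was at -0.04 ± 0.06 and 0.06 ± 0.06 in the same order, neither past the test. Tnf had 47.6, 35.5 and 45.7 normalised reads in combination libraries, 52.0, 47.8 and 45.9 in GSK-LSD1 libraries, 23.9, 26.7 and 19.8 in ruxolitinib libraries, and 33.8, 35.0 and 37.6 in DMSO libraries. Against ruxolitinib it was higher by 0.85 ± 0.19 after the combination (adjusted p = 0.00152) and by 1.03 ± 0.19 after GSK-LSD1 (0.00034), whereas against DMSO it was at 0.26 ± 0.19 after the combination (0.277) and 0.44 ± 0.19 after GSK-LSD1 (0.077). Il1b, with at most 13.4 normalised reads in any library, was under the limit for testing.

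A few targets differed by ruxolitinib. Saa3, an acute phase protein, had 96.2, 92.7 and 115 normalised reads in combination libraries, 136, 129 and 142 in GSK-LSD1 libraries, 55.7, 44.2 and 47.4 in ruxolitinib libraries, and 99.3, 76.0 and 99.0 in DMSO libraries. Ruxolitinib libraries lay below all others, and the difference from DMSO was -0.88 ± 0.14 (limma adjusted p = 0.00381), the only call among the 30 targets in that comparison. In the combination against GSK-LSD1, 2 targets passed, both higher. Lcn2, the neutrophil protein lipocalin 2, was higher by 0.68 ± 0.11 (adjusted p = 0.00123). Against DMSO, Lcn2 passed after the combination, at 0.72 to 0.92 over the 24 alternatives, and did not pass after GSK-LSD1. Plaur, the urokinase receptor, was higher by 0.45 ± 0.09 (adjusted p = 0.0108), which was lost without combination library 3 (0.0537) or GSK-LSD1 library 2 (0.0897) or 3 (0.0501).

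**Figure D4:**
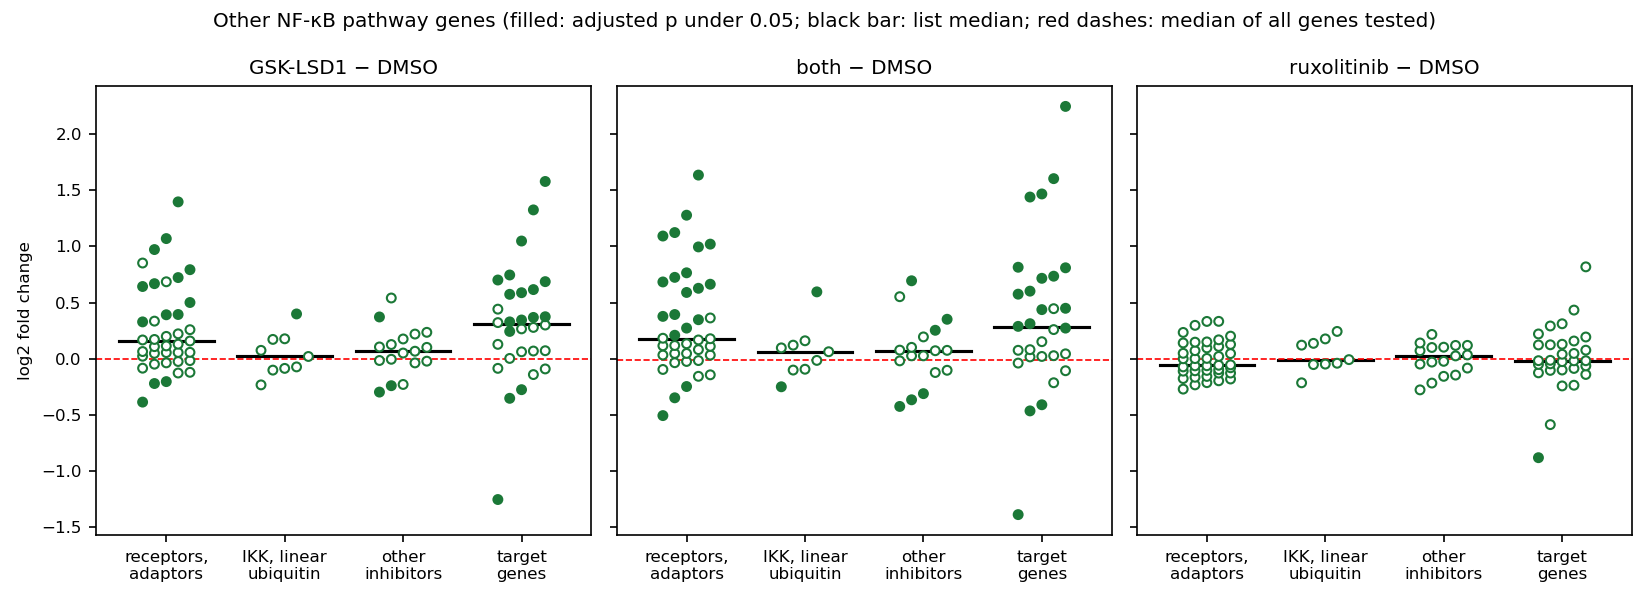
Log2 fold change against DMSO of the tested genes of 4 pathway lists after GSK-LSD1, the combination ("both") and ruxolitinib; filled points had an adjusted p under 0.05, black bars are list medians and the red dashes the median of all genes tested. Receptors and adaptors (17 higher after the combination, 11 after GSK-LSD1) and target genes (15 and 14 higher) hold most of the filled points, and the ruxolitinib panel holds 1.

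Marker genes of several other cell types moved with the same split of libraries, in a background where 42.3% of all genes passed for the combination and 32.5% for GSK-LSD1 against DMSO. The 12 monocyte and macrophage markers summed to 825 to 921 normalised reads in combination libraries, 812 to 874 in GSK-LSD1 libraries, 559 to 619 in ruxolitinib libraries and 597 to 643 in DMSO libraries. Of these 12, 7 were tested, 5 were higher after the combination and 4 after GSK-LSD1 than after DMSO, and Marco and C1qb were at 0 in every library. The 10 dendritic cell markers summed to 229.7 to 309 in combination libraries, 281 to 333 in GSK-LSD1 libraries, 154 to 179 in ruxolitinib libraries and 139 to 144 in DMSO libraries. Of these 10, 4 were tested and 3 were higher after either treatment with GSK-LSD1, while H2-Aa was at 0.

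The 10 mature neutrophil markers, of which 9 were in the table, summed to 18456 to 20160.3 in combination libraries, 12408 to 13915 in GSK-LSD1 libraries, 7699 to 9321 in ruxolitinib libraries and 7329 to 8768 in DMSO libraries. The largest parts were Mmp8, at 1764 to 8499 normalised reads, and S100a9, at 2530 to 6911. Ltf had at most 23.9, and Camp and Retnlg were under the limit for testing. Whether reads of the CSF3R vector are counted in Csf3r is not known. Of the 7 tested, 6 were higher after the combination and 5 after GSK-LSD1 than after DMSO. Between the combination and GSK-LSD1, where none of the 10 NF-κB genes and 1.4% of all genes passed, 5 of these neutrophil markers were higher. The 6 mast cell and basophil markers summed to 17320 to 20012 in combination libraries and 18504 to 20082 in GSK-LSD1 libraries. They summed to 18727 to 20047 in ruxolitinib libraries, which overlapped both, and to 15750 to 17546 in DMSO libraries. All 6 were tested, and 5 were higher after either treatment with GSK-LSD1 than after DMSO. Against ruxolitinib, 3 were higher and 1 lower after the combination, and 2 were higher and 2 lower after GSK-LSD1. Of all genes, 31.6% and 25.4% passed in these comparisons. The 5 erythroid markers summed to 84.8 to 180.0 in combination libraries, 80.6 to 104 in GSK-LSD1 libraries, 187 to 225 in ruxolitinib libraries and 177 to 203 in DMSO libraries. Of the 3 tested, 3 were lower after the combination and 2 after GSK-LSD1 than after DMSO, and Hba-a1 and Hbb-bt were at 0. The 6 markers of stroma and endothelium summed to 3832 to 3873 in combination libraries, 3588 to 3832 in GSK-LSD1 libraries, 2923 to 3384 in ruxolitinib libraries and 2999 to 3078 in DMSO libraries. Nearly all of this sum was Pecam1, at 2873 to 3803 normalised reads, while Col1a1 had 30.8 to 77.9. Of these 2, the only ones tested, Pecam1 was higher after the combination and both after GSK-LSD1, and Cdh5 was at 0.

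Of the 7 immature myeloid markers, 3 were higher and 0 lower after the combination, and 1 was higher and 3 lower after GSK-LSD1, each against DMSO. The lower ones were the granule protease genes Elane (-0.82 ± 0.14), Prtn3 (-0.73 ± 0.09) and Ctsg (-0.69 ± 0.09). B cell markers summed to at most 8.93 and T and NK cell markers to at most 14.9 normalised reads in any library, with Ms4a1, Pax5, Cd4 and Ncr1 at 0. The part of these other cells in the values of the NF-κB genes was not tested.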

How the data were processed

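RNA-seq was deposited as 1 table of normalised signal per gene and library, which the authors made from read counts; the submitters' processing notes name STAR, DESeq2, mm10 and GRCm38, with no versions or roles. The counting annotation, strandedness and filters are not given in the sources used here. A constant of 1e-05 in every value was taken off, after which all values were whole multiples of a step per library (tolerance 0.01). Since the values are scaled, no count model was used, and log2(value + 1) was tested with limma 3.58.1 in R 4.3.3 (eBayes with trend, 8 residual degrees of freedom) in 1 fit of all 12 libraries. Genes with a mean of at least 10 entered, and Benjamini-Hochberg adjustment ran over all 11484 of them in each comparison, with a threshold of 0.05 and no fold limit. A fold change on this scale understates changes of low genes. The procedure was also run on simulated data with a single dispersion for all genes and few changed genes. That setting differs from these data, so nothing is concluded from it.

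The 10 genes and all lists were chosen with earlier results of these data known. From the pathway lists, genes to name were, per comparison, the 3 with the largest called change whose higher group averaged 50 or more, plus 9 genes of the pathway, with Kdm1a and Gfi1b as checks; the text gives some of them. Positions and exon lengths are from GENCODE vM21, matched by symbol, and promoters from RefSeq (GRCm38.p6). Alternatives were a pseudocount of 0.25 or 5, no minimum or one of 50, upper quartile and quantile scaling, a GC correction, a replicate block, library weights, fits of the compared groups alone, and libraries left out.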

Additional observations from a re-analysis of the deposited data

How the results depend on the processing

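The counts of called genes moved with the libraries. With each library left out in turn, 1 to 5 of the 10 genes passed for GSK-LSD1 against DMSO, 2 to 6 for the combination against DMSO, 4 to 5 for the combination and for GSK-LSD1 against ruxolitinib, and 4 to 6 in the F-test. In the 4 pairwise comparisons, in the same order, 23.8% to 36.6%, 35% to 45.1%, 25% to 33.3% and 17.2% to 30.7% of all genes passed. For GSK-LSD1 against DMSO the count fell to 1 without DMSO library 3 (24.4% of all genes). It fell to 3 with quantile normalisation (30.2% of all genes). The cause was not tested. Of 19 calls, 10 held under every alternative. Against DMSO these were Rel for GSK-LSD1 and Nfkb1 for the combination. Against ruxolitinib they were Rel, Relb, Nfkbie and Nfkbiz in both treatments with GSK-LSD1. The means of Rel, Relb, Nfkbie and Nfkbiz were lower after ruxolitinib than after DMSO, though not past the test, which enlarges the differences against ruxolitinib. No called log2 fold change of the 10 genes changed sign, and those that did were uncalled in both fits. With the GC correction, with or without the block, Nfkb2 and Rela were at -0.107 and -0.0295 for ruxolitinib against DMSO and Rela at -0.0511 for the combination against DMSO. With quantile normalisation Tnfaip3 was at -0.126 for GSK-LSD1 against DMSO. Without ruxolitinib library 2 and combination library 3 together, Bcl3 was at -0.0157 for ruxolitinib against DMSO, and Rela at -0.0259 for the combination against DMSO and -0.0625 against GSK-LSD1. With 1 library left out, Bcl3 ranged from -0.0157 (without ruxolitinib library 2) to 0.258 for ruxolitinib against DMSO, and from -0.0347 (without ruxolitinib library 1) to 0.239 for the combination against ruxolitinib. In the combination, Nfkb2 ranged from -0.171 to 0.0334 against DMSO, from -0.173 to 0.0314 against ruxolitinib and from -0.143 to 0.0613 against GSK-LSD1, each highest without combination library 1. Rela ranged from -0.0259 to 0.108 against DMSO and from -0.0625 to 0.0717 against GSK-LSD1, each lowest without combination library 3. Same-numbered libraries did not deviate together (1 of 18 pairs with r over 0.1, median -0.006). The replicate block left 5 genes called for GSK-LSD1 and 4 for the combination against DMSO, where Rel was lost (adjusted p = 0.0537). Of all genes, 30.3% and 40.6% passed with the block, in the same order. Tnfaip3 had the lowest counts and the largest SE (0.20) of the 10 genes.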

Other observations

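Il6, a cytokine gene that depends on IκBζ in macrophages, was singled out after its values were seen. It had 925, 859 and 558 normalised reads in combination libraries, 855, 873 and 1003 in GSK-LSD1 libraries, 536, 552 and 492 in ruxolitinib libraries, and 481, 665 and 545 in DMSO libraries. Every GSK-LSD1 library was above every ruxolitinib and DMSO library, and combination library 3 fell among the DMSO libraries. Il6 differed from DMSO by 0.45 ± 0.13 after the combination (limma adjusted p = 0.0104) and by 0.70 ± 0.13 after GSK-LSD1 (0.000428). The call for the combination was lost without combination library 1 (0.0797) or 2 (0.0587) or DMSO library 1 (0.0778). The call for GSK-LSD1 held under all 24 alternatives. Lcn2, the other target named with Nfkbiz, did not pass after GSK-LSD1 against DMSO.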
